A study of Mus musculus with 6 samples.

Results

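Hox genes encode homeodomain transcription factors that carry position along the head-to-tail axis. The members described here were every protein-coding gene of the deposited count table whose symbol is Hox, a cluster letter from a to d and a number, with 1 row kept per symbol, which gave 39 of 56859 genes. The table places 11 in the Hoxa cluster on chromosome 6, 10 in the Hoxb cluster on chromosome 11, 9 in the Hoxc cluster on chromosome 15 and 9 in the Hoxd cluster on chromosome 2. No measured value entered the choice.

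The RNA came from spinal cord of wild-type mice, 6 weeks after a contusion at thoracic level T10, a blunt blow to the cord. The AZ876 group (n = 3) had been injected intraperitoneally with AZ876, a compound that activates liver X receptors, at 5 mg/kg once a day for 1 week after the contusion, and the injury group (n = 3) had the same contusion without AZ876. The treatment protocol gives control animals the same solvent, although the titles of the injury samples do not name it. All 6 samples carry the same batch label. Strain, sex, age, pooling of animals, the length of cord taken and its distance from the contusion are not given in the labels. Nor do they say that replicates are separate animals, so part of the spread behind the p-values may be technical.

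In the embryo, Hox genes are switched on in the order in which they lie in their cluster: low-numbered paralogue groups are expressed from the hindbrain and neck downwards, and high-numbered groups only towards the tail. Genes of the same number in different clusters are paralogues, related copies with overlapping roles. In the spinal cord, groups 4 to 8 are used at cervical and brachial levels, Hoxc9 and its paralogues at thoracic levels, group 10 at lumbar levels and groups 11 to 13 at lumbosacral and tail levels, where they set the identity of motor neurons and interneurons. Part of this code is kept in adult tissue, so the set of Hox transcripts in a cord sample depends on the level from which it was cut. Below, groups 1 to 5 are called the rostral band (15 genes), groups 6 to 9 the middle band (12 genes) and groups 10 to 13 the caudal band (12 genes).

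The clusters also hold microRNAs, short RNAs that bind messages through their seed, bases 2 to 8. They are shown because they fall into 2 seed families, both encoded inside the Hox clusters, and because miR-196 is known in mouse to cut the Hoxb8 message, the Hox message with the highest level per length in these libraries. The mature sequences, from RefSeq on GRCm38.p6, are written with the seed in capitals.
mmu-miR-10a-5p: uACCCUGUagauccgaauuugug
mmu-miR-10b-5p: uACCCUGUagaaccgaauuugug
mmu-miR-196a-5p: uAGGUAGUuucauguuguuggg
mmu-miR-196b-5p: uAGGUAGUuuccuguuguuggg
The miR-10 pair shares 1 seed and the miR-196 pair another. The precursor of miR-196a beside Hoxb9, Mir196a-1, had 1.37, 1.62 and 2.16 CPM (counts per 1000000, with library sizes scaled by TMM) in AZ876 replicates 1, 2 and 3, and 2.59, 1.26 and 3.12 CPM in injury replicates 1, 2 and 3. The groups overlapped, and the log2 fold change was -0.43 ± 0.40 (SE; edgeR adjusted p = 0.594). Mir10a and Mir10b had too few reads for the test and Mir196b had 0 in all 6 libraries. Rows of a messenger-length library do not measure mature microRNAs.

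Libraries held 14067649 to 17676466 counts in the AZ876 group and 15493073 to 20211175 in the injury group, and 17599 genes had enough reads to be tested. Before any Hox result, the marker lists show that the libraries of the 2 groups also differed in other cell types. The 16 neuron markers summed to 2422 to 5414 CPM in AZ876 libraries and 5828 to 7306 CPM in injury libraries, with 0 higher and 8 lower at an unadjusted p under 0.05, led by the neurofilament genes Nefm and Nefh. At that threshold 7.98% of all genes were higher and 6.74% lower, the shares against which each such count below is to be read. The 18 fibroblast and meningeal markers summed to 2882 to 4082 CPM in AZ876 libraries and 974 to 2419 CPM in injury libraries (13 higher, 0 lower, led by Slc6a20a and Foxc1), and the 14 Schwann cell markers to 3567 to 4076 CPM and 1923 to 3122 CPM in the same order (9 higher, 0 lower, led by Scn7a and Ncmap). The 11 microglial and macrophage markers summed to 4274 to 11610 CPM in AZ876 libraries and 2970 to 5859 CPM in injury libraries. Those sums overlapped, with 3 markers higher and 0 lower. The 10 lymphocyte markers summed to 26.3 to 65.8 CPM and 9.10 to 24.1 CPM in the same order, without overlap. Of these, 7 were higher and 0 lower. The 12 oligodendrocyte markers summed to 21430 to 26560 CPM in AZ876 libraries and 27440 to 29760 CPM in injury libraries, without overlap, with 0 higher and 1 lower (Hapln2, -0.70 ± 0.16, unadjusted p = 0.00262, edgeR adjusted p = 0.330). The 10 astrocyte markers overlapped between groups, with sums of 11250 to 17250 CPM in AZ876 libraries and 11620 to 15670 CPM in injury libraries. The forebrain genes Otx2 and Six3 were at 0 in every library, as were the sensory ganglion genes Prdm12 and Mrgprd. In bulk tissue, fewer cells of a type and less RNA per cell cannot be told apart. Hox transcripts of group 11 did not split the libraries by group: AZ876 replicates 1 and 2 stood apart from AZ876 replicate 3 and from the 3 injury libraries.

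No Hox gene passed the test between the groups. Of the 39 members, 30 had enough reads to be tested, 13 of 15 in the rostral band, 12 of 12 in the middle band and 5 of 12 in the caudal band. At a Benjamini-Hochberg adjusted p under 0.05 in edgeR's quasi-likelihood test, 0 of the 30 were called, beside 0% of all genes tested, and the smallest adjusted p of a Hox gene was 0.330. DESeq2, which called 1.01% of all genes, and limma-voom, which called 0%, also called 0 Hox genes. At an unadjusted p under 0.05, 2 of 30 Hox genes passed in edgeR, Hoxc11 higher and Hoxa7 lower in AZ876, beside 14.7% of all genes (7.98% higher and 6.74% lower). Hoxa7 was also the 1 gene of the 30 whose groups did not overlap, lower in AZ876, beside 8.64% of all genes without overlap and lower and 10.2% without overlap and higher. Both shares of Hox genes were below those of all genes.

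The fitted differences had a pattern along the axis, given here as values without a test. The median log2 fold change, AZ876 over injury, was -0.12 over the 13 tested rostral genes (7 negative), -0.29 over the 12 middle genes (11 negative) and 0.88 over the 5 tested caudal genes (1 negative). Over all 30 it was -0.19 with 19 negative, beside 0.004 and 49.5% negative over all genes. These medians moved with single libraries: over all tested Hox genes from -0.24 without injury replicate 2 to -0.01 without injury replicate 1, where 16 of 30 were negative, over the middle band from -0.40 without AZ876 replicate 1 to -0.14 without injury replicate 1, and over the caudal band from 0.51 without AZ876 replicate 1 to 1.38 without AZ876 replicate 3. The rostral median ran over -0.30 without injury replicate 2 to 0.09 without injury replicate 3. The caudal median covers only the genes that passed the filter on low counts and does not stand for the 12 caudal members. The spread inside groups followed the axis as well: the median within-group SD of log2 CPM was 0.32 in the rostral band, 0.35 in the middle band and 1.30 in the caudal band, beside 0.25 over all genes. Most caudal genes had low counts, which widen this spread, and the part of counting error in it was not tested. Hoxc10, with 288 to 584 reads in AZ876 libraries and 496 to 696 in injury libraries, had an SD of 0.48, below those of the middle genes Hoxb8 (0.66) and Hoxb9 (0.67).

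**Figure D1:**
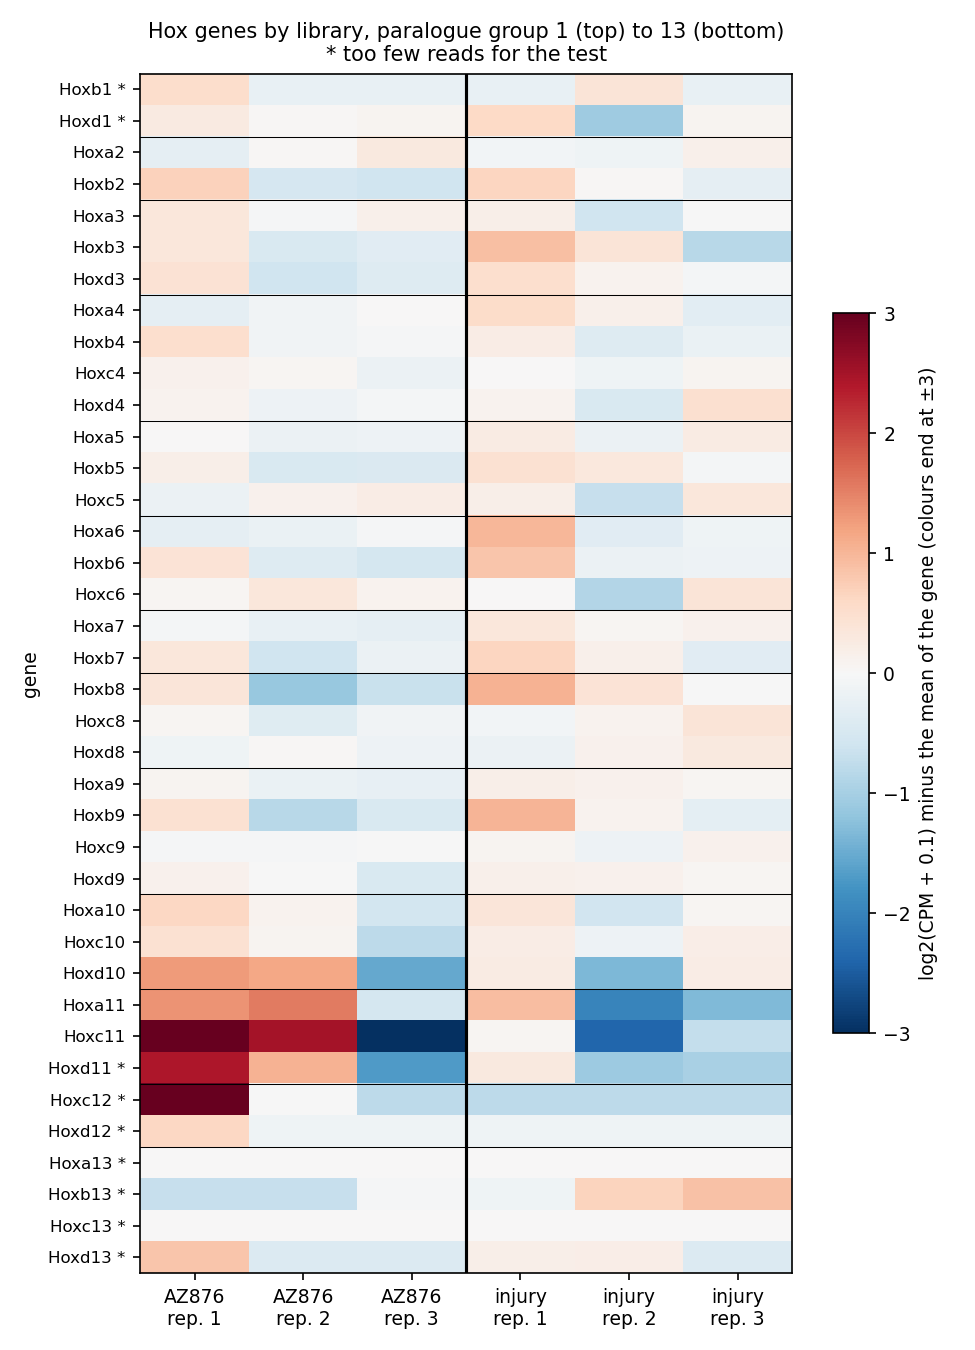
Level of the Hox genes shown in each library, as log2 of CPM plus a small constant minus the mean of that gene; columns are the 3 AZ876 and the 3 injury libraries, rows run from group 1 at the top to group 13 at the bottom, and an asterisk marks genes with too few reads for the test. The deepest colours are in group 11 and neighbouring rows and split the AZ876 libraries, with replicates 1 and 2 high and replicate 3 low.

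**Figure D2:**
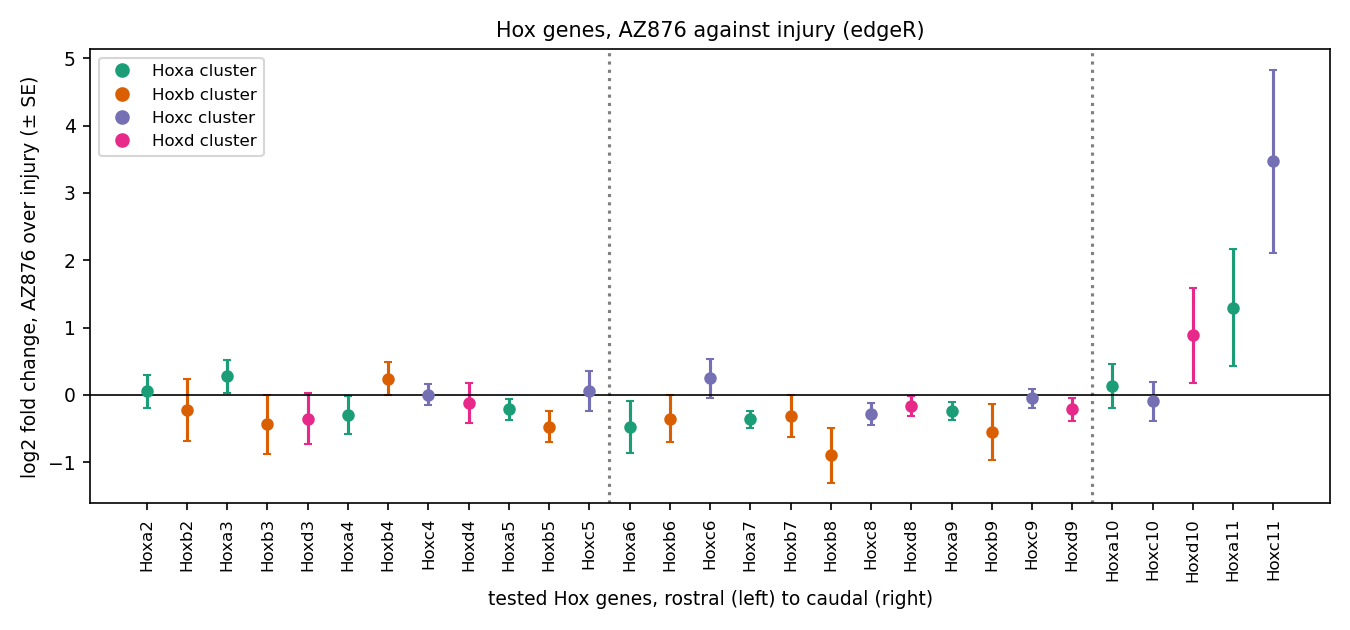
Log2 fold change of AZ876 over injury (points) with its standard error (bars) for tested Hox genes in rostral to caudal order, coloured by cluster, with dotted lines between the bands. Rostral values lie on both sides of 0, 11 of 12 middle values lie below it, and Hoxc11 reaches 3.47 with the widest error.

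In the rostral band the groups overlapped for every gene and no direction was shared. Hoxa2, which specifies hindbrain segments and the second pharyngeal arch, had 2.94, 3.65 and 4.37 CPM in AZ876 libraries and 3.38, 3.26 and 3.97 CPM in injury libraries (log2 fold change 0.05 ± 0.25, SE, adjusted p = 0.927). It sat low in every library, with ranges that ran through each other.

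Hoxa3, needed for the thymus and parathyroids in mouse, had 10.8, 8.43 and 9.56 CPM in AZ876 libraries, against 9.68, 5.62 and 8.45 CPM in injury libraries (0.28 ± 0.24, adjusted p = 0.569). Hoxc4, a gene of cervical and brachial levels, had 18.2, 17.2 and 14.6 CPM in AZ876 libraries and 16.8, 15.3 and 17.7 CPM in injury libraries, with a log2 fold change of 0.01 ± 0.15 (adjusted p = 0.986). Hoxa5, which with Hoxc5 sets the identity of phrenic motor neurons, was the rostral gene of highest level per length. It had 26.4, 23.2 and 23.6 CPM in AZ876 libraries, against 30.9, 23.0 and 31.1 CPM in injury libraries (-0.21 ± 0.16, adjusted p = 0.498). For both genes the ranges of the groups overlapped.

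Of the other rostral members, Hoxb5 had the lowest unadjusted p, 0.0718, with 23.9, 15.3 and 15.6 CPM in AZ876 libraries against 29.2, 26.4 and 20.2 CPM in injury libraries (-0.47 ± 0.22, adjusted p = 0.356); this gene was picked out after its values were seen. Hoxb2, Hoxb3, Hoxd3, Hoxa4 and Hoxd4 had log2 fold changes of -0.44 to -0.12, and Hoxb4 and Hoxc5 had 0.24 and 0.07. Hoxb1 and Hoxd1 were not tested: Hoxb1 had 1 read in 1 library of each group, and Hoxd1 had 8 to 10 reads in AZ876 libraries and 4 to 18 in injury libraries. The row of Hoxc5 spans Hoxc6, Hoxc8, Hoxc9 and Hoxc10 on the same strand, and that of Hoxa3 spans Hoxa4, Hoxa5 and Hoxa6, so their reads are uncertain. Of the 39 members, 23 overlap another row, 15 on the same strand and 14 on the opposite strand, and the strand setting of the counting is not given in the sources used here.

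The middle band held most of the Hox RNA in every library. It took 69.0%, 65.5% and 72.2% of the summed Hox CPM in AZ876 libraries, against 76.0%, 76.5% and 72.1% in injury libraries. The means were 68.9% ± 3.36 and 74.8% ± 2.43 (SD, n = 3 each), and AZ876 replicate 3 overlapped injury replicate 3. Per kilobase of exon (lengths from GENCODE M21), the highest mean levels over the 6 libraries were those of Hoxb8 at 44.7 ± 23.0 CPM per kb, Hoxb9 at 25.5 ± 12.5, Hoxd8 at 18.6 ± 2.49 and Hoxb6 at 16.8 ± 6.63 (SD, n = 6). The SDs of Hoxb8, Hoxb9 and Hoxb6 were wide enough for each to run into the next in that order.

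Hoxa7, a trunk-level gene of the Hoxa cluster, had 29.8, 26.8 and 25.9 CPM in AZ876 libraries, against 39.5, 32.7 and 33.9 CPM in injury libraries. All 3 AZ876 libraries lay below all 3 injury libraries. The means were 27.5 ± 2.05 and 35.4 ± 3.65 CPM (SD, n = 3 each), and the log2 fold change was -0.36 ± 0.13, with an unadjusted p of 0.0256 and an adjusted p of 0.330 in edgeR. A two-sided exact permutation test gave p = 0.1, the smallest that 3 against 3 libraries can give.

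Hoxb8, which is needed for dorsal horn circuits and also marks cells of the blood and microglial lineage in mouse, had 134, 47.3 and 66.0 CPM in AZ876 libraries, against 217, 138 and 105 CPM in injury libraries. AZ876 replicate 1 lay above injury replicate 3, so the groups overlapped. The means were 82.5 ± 45.8 and 153 ± 57.9 CPM, and the log2 fold change was -0.89 ± 0.41 (unadjusted p = 0.0618, adjusted p = 0.347). It was -1.44 without AZ876 replicate 1 (adjusted p = 0.0561) and -0.56 without injury replicate 1 (adjusted p = 0.651), the ends of its range when 1 library was left out.

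Its neighbours had the same order of libraries inside the AZ876 group or nearly so. Hoxb9, a thoracic-level gene, had 82.6, 33.6 and 43.6 CPM in AZ876 libraries and 121, 64.5 and 48.7 CPM in injury libraries (-0.56 ± 0.42, adjusted p = 0.505), and its log2 fold change was -1.02 without AZ876 replicate 1 and -0.09 without injury replicate 1. Hoxb6 had 41.3, 23.7 and 21.7 CPM in AZ876 libraries and 55.5, 27.3 and 27.9 CPM in injury libraries (-0.35 ± 0.35, adjusted p = 0.616). Replicate 1 was the highest of its group for each of Hoxb6, Hoxb7, Hoxb8 and Hoxb9.

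The spread of the middle band was therefore not even across clusters. Hoxb6 to Hoxb9 summed to 283, 118 and 149 CPM in AZ876 libraries, against 426, 252 and 197 CPM in injury libraries. The middle genes of the Hoxa cluster summed to 75.9, 65.4 and 63.6 CPM in AZ876 libraries and 92.9, 80.0 and 79.6 CPM in injury libraries, those of the Hoxc cluster to 85.3, 80.9 and 82.3 CPM and 82.7, 73.3 and 104 CPM in the same order, and those of the Hoxd cluster to 69.6, 73.5 and 61.7 CPM and 68.5, 79.1 and 84.4 CPM. The Hoxb values spread most inside each group, and only the Hoxa sums did not overlap between groups. Hoxc9, picked out after its values were seen because it sets thoracic motor neuron identity in mouse, had 20.0, 20.0 and 20.2 CPM in AZ876 libraries and 21.6, 18.4 and 22.3 CPM in injury libraries (-0.05 ± 0.14, adjusted p = 0.867). All 7 genes of groups 8 and 9 had negative log2 fold changes, with a median of -0.24; without injury replicate 3 it was 6 of 7. Across the band, 11 of 12 were negative under every scaling tried, and 9, 12 and 10 without injury replicates 1, 2 and 3. The sum of the neuron markers was also lower in all 3 AZ876 libraries, as given above. Of the 16 markers, 6 were lower without overlap, beside 8.64% of all genes. Slc17a6, Gad2 and Elavl4 had their highest value in AZ876 replicate 1. The part of neuron content in these values was not tested.

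**Figure D3:**
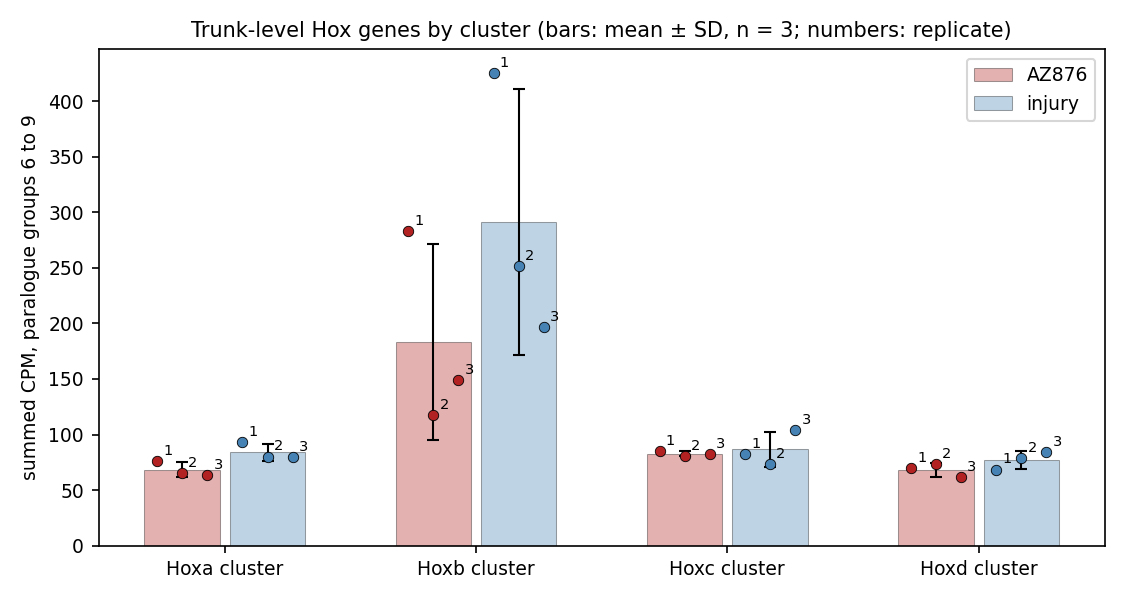
Summed CPM of the middle-band Hox genes (groups 6 to 9) of each cluster, AZ876 left of injury; bars are means, error bars SDs over 3 libraries, and points single libraries with their replicate number. The Hoxb cluster runs over 118 to 283 CPM in AZ876 libraries and 197 to 426 CPM in injury libraries, while the other clusters stay between 61.7 and 104 CPM.

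The caudal band is where the libraries differed most, and they differed inside the AZ876 group. Group 10, the lumbar genes, summed to 91.2, 69.9 and 35.3 CPM in AZ876 replicates 1, 2 and 3, against 72.0, 44.5 and 65.3 CPM in injury replicates 1, 2 and 3. Group 11 summed to 13.8 CPM (95% counting interval 11.9 to 15.8), 8.50 (7.06 to 10.2) and 0.758 (0.403 to 1.29) in AZ876 libraries, and to 3.28 (2.54 to 4.16), 0.315 (0.116 to 0.686) and 0.845 (0.450 to 1.45) in injury libraries. The intervals are exact Poisson and cover counting error only. AZ876 replicates 1 and 2 were above every other library, and AZ876 replicate 3 lay among the injury libraries. Highest over lowest was 18.2 inside the AZ876 group and 10.4 inside the injury group.

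Hoxc10, the most highly expressed group 10 gene, which specifies lumbar motor neurons together with Hoxd10, had 39.9, 30.8 and 16.8 CPM in AZ876 libraries, against 34.0, 26.0 and 33.4 CPM in injury libraries. The lowest library of all was AZ876 replicate 3 and the highest AZ876 replicate 1, and the log2 fold change was -0.10 ± 0.29 (adjusted p = 0.884). Hoxc11, a lumbosacral gene, had 9.10 and 4.43 CPM in AZ876 replicates 1 and 2 and 0 reads in replicate 3, where 3 counts would be 0.175 CPM, against 0.734, 0.0525 and 0.390 CPM in injury libraries. The reads behind these values were 133, 63 and 0 in AZ876 libraries and 15, 1 and 6 in injury libraries. The log2 fold change was 3.47 ± 1.36 (unadjusted p = 0.0351, adjusted p = 0.330) in edgeR and 1.68 in limma-voom (adjusted p = 0.721), and the exact two-sided permutation test gave p = 0.4. The groups overlapped at both ends.

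The remaining caudal genes were picked out after their values were seen. Hoxd10, the other lumbar motor neuron gene, had 14.2, 13.1 and 1.92 CPM in AZ876 libraries and 6.85, 2.21 and 6.76 CPM in injury libraries (0.88 ± 0.70, adjusted p = 0.529). Hoxa11, which shapes the forearm and lower leg, had 3.01, 3.51 and 0.758 CPM in AZ876 libraries and 2.25, 0.210 and 0.390 CPM in injury libraries (1.30 ± 0.86, adjusted p = 0.458). Hoxa10 had 37.1, 25.9 and 16.6 CPM in AZ876 libraries and 31.1, 16.3 and 25.1 CPM in injury libraries (0.13 ± 0.33, adjusted p = 0.854). In all 3 genes AZ876 replicate 3 was the lowest of its group, and the groups overlapped. The rows of Hoxd10 and Hoxd11 overlap a predicted noncoding gene on the same strand, and that of Hoxa11 overlaps its antisense transcript.

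The 7 caudal genes that were not tested had few reads. Hoxd11 had 24, 8 and 0 reads in AZ876 libraries and 6, 1 and 1 in injury libraries. Hoxc12 had 20, 1 and 0 reads in AZ876 libraries and 0 in all 3 injury libraries, which is at least 8.35-fold higher in the summed AZ876 libraries against a floor of 3 counts over the injury group, with 20 of the 21 reads in replicate 1. Hoxb13, the group 13 gene with the most reads, had 0, 0 and 1 reads in AZ876 libraries and 1, 3 and 3 in injury libraries. Hoxd12 had 1 read and Hoxd13 had 4 over all libraries, and Hoxa13 and Hoxc13 had none. Group 12 and 13 genes were thus at or near the floor everywhere except for Hoxc12 in AZ876 replicate 1.

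Hotair, a long noncoding RNA transcribed from the strand opposite to the Hoxc genes, gave a further caudal readout that the choice of members had not used; it was singled out after its values were seen. The table places it at positions 102852494 to 102856165 of chromosome 15, between Hoxc12 and Hoxc11, overlapping neither. It had 40, 16 and 1 reads in AZ876 libraries and 0 in all 3 injury libraries, which is at least 22.7-fold higher in the summed AZ876 libraries against a floor of 3 counts over the injury group. The order of the AZ876 libraries was that of Hoxc11, and nearly all reads came from replicates 1 and 2. The low counts kept Hotair out of the test.

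**Figure D4:**
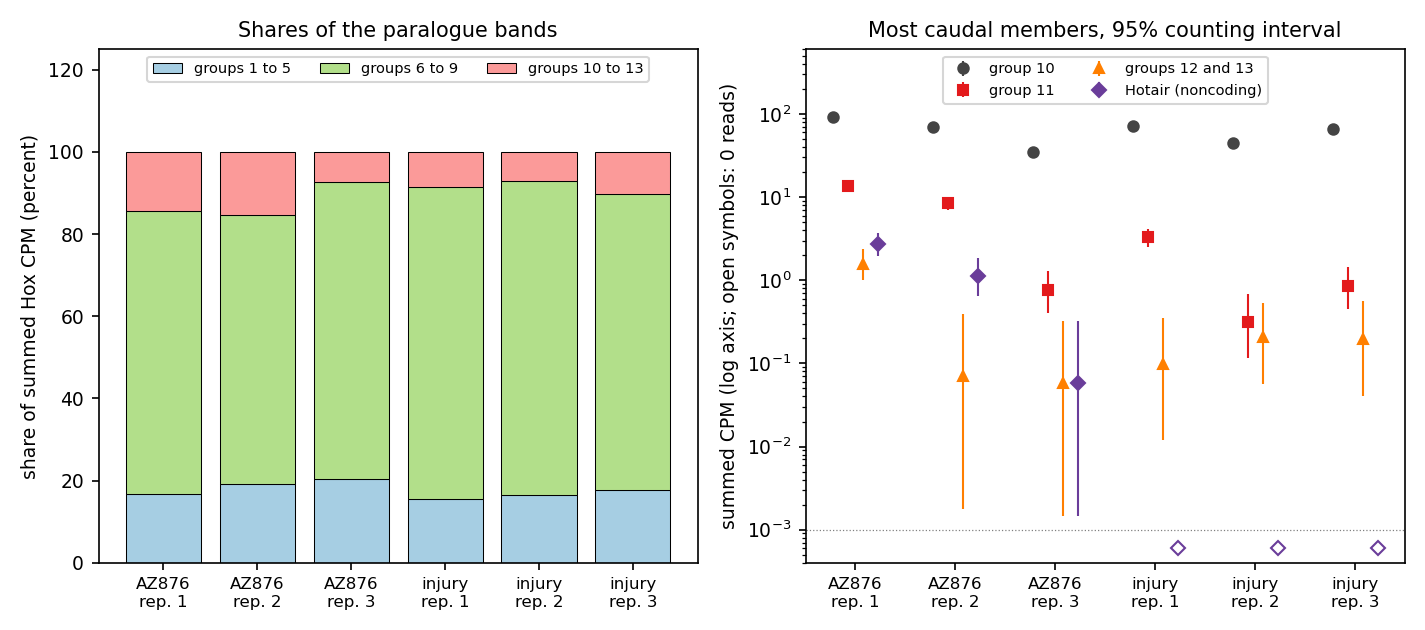
Left, share of summed Hox CPM held by groups 1 to 5, 6 to 9 and 10 to 13 in each library; right, summed CPM on a log axis of group 10, group 11, groups 12 and 13 and Hotair, with 95% counting intervals and open symbols under the dotted line for 0 reads. Group 11 stands at 13.8 and 8.50 CPM in AZ876 replicates 1 and 2 and between 0.315 and 3.28 CPM in the other 4 libraries.

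Whether the libraries match in spinal level was read from the ratio of caudal to rostral Hox RNA, which does not depend on the scaling of libraries. The summed CPM of groups 10 to 13 over that of groups 1 to 5 was 0.858, 0.791 and 0.357 in AZ876 libraries, against 0.554, 0.433 and 0.581 in injury libraries. On the log2 scale the means were -0.68 ± 0.70 and -0.95 ± 0.23 (SD, n = 3 each), a difference of 0.27, smaller than the spread inside the AZ876 group. Taken as groups 9 to 13 over groups 4 to 8, the difference was 0.21 beside a pooled SD of 0.18, and without the most abundant gene of each band (Hoxa5, Hoxb8 and Hoxc10) it was 0.51 beside 0.65. AZ876 replicates 1 and 2 had the highest ratios and AZ876 replicate 3 the lowest of the 6. The difference rested on single libraries: it was 0.67 when AZ876 replicate 3 was left out, 0.04 when AZ876 replicate 1 was, 0.09 when AZ876 replicate 2 was, and 0.14 with injury replicate 2 removed.

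The groups of highest number separated the libraries more widely. Groups 11 to 13 took 2.06%, 1.66% and 0.165% of the summed Hox CPM in AZ876 libraries, against 0.383%, 0.0829% and 0.161% in injury libraries. Their sum was 15.3, 8.57 and 0.816 CPM in AZ876 libraries and 3.38, 0.525 and 1.04 CPM in injury libraries, so that the highest exceeded the lowest 18.8 times inside the AZ876 group and 6.43 times inside the injury group. Summed over whole marker lists, most of which hold more reads, the widest spread inside the AZ876 group was that of muscle, at 4.30 times, followed by sensory ganglion at 3.51. Single genes of those lists spread more widely, as Th at 10.1, 1.69 and 0.524 CPM and Myh4 at 0.137, 9.13 and 0.757 CPM in AZ876 libraries, against 6.07, 2.05 and 1.04 CPM and 4.50, 0.105 and 0.390 CPM in injury libraries. The rostral sums were 124, 99.2 and 101 CPM in AZ876 libraries and 136, 104 and 114 CPM in injury libraries, and overlapped. By these values the 6 libraries did not hold equal amounts of lumbosacral Hox RNA, and the 3 AZ876 libraries were not alike among themselves. The level from which each sample was cut and a change of Hox expression at a fixed level cannot be told apart here. Marker sums differed between libraries too. Neuron markers summed to 5414, 3643 and 2422 CPM in AZ876 replicates 1, 2 and 3, the order of the sums of groups 11 to 13 there. In injury replicates 1, 2 and 3 they summed to 7306, 7287 and 5828 CPM, an order those Hox sums did not share. The part of cell make-up in these values was not tested.

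Promoters are shown for members on which these values turn and for which the promoter table used here has an entry: Hoxa7, without overlap between groups; Hoxb8, of highest level; and Hoxd10 and Hoxa11, among the genes that split the AZ876 libraries. Each runs from 250 bases before to 50 after the start on GRCm38.p6: chr6:52218524-52218823 on the minus strand for Hoxa7, chr11:96281655-96281954 on the plus strand for Hoxb8, chr2:74691641-74691940 on the plus strand for Hoxd10 and chr6:52245761-52246060 on the minus strand for Hoxa11. Capitals mark matches on either strand to TATAAA (the AT-rich box of many core promoters), TTTATG (a core bound by the Cdx factors), TGATNNAT (a joint Hox and Pbx core) and GGGCGG (a GC box).
Hoxa7: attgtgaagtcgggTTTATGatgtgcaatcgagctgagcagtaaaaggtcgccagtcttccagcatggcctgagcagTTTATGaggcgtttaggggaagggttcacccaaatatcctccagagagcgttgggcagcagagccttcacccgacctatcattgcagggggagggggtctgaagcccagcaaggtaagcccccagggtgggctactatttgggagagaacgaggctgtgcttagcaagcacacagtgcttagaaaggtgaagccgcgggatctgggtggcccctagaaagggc
Hoxb8: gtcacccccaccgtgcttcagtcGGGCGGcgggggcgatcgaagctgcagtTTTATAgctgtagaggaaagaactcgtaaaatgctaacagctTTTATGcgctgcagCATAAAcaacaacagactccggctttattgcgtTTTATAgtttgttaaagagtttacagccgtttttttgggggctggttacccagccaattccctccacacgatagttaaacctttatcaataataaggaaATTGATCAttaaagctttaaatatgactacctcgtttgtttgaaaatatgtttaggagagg
Hoxd10: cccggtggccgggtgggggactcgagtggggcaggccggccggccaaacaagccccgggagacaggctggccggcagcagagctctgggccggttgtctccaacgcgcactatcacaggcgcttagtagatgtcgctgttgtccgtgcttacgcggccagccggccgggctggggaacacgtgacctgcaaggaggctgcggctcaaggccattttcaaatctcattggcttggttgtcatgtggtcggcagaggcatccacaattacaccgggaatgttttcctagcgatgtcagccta
Hoxa11: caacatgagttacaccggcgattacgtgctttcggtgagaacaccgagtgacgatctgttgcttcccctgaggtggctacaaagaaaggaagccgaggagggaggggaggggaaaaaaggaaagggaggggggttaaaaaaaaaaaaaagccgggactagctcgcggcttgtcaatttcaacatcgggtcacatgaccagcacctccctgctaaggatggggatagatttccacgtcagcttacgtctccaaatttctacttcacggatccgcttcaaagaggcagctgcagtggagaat
Hoxb8 held 2 matches to TATAAA, 2 to TTTATG, 1 to TGATNNAT and 1 to GGGCGG, Hoxa7 held 2 to TTTATG, and Hoxd10 and Hoxa11 held none of the 4. These motifs occur in 13.6%, 11.9%, 8.85% and 35.7% of 32851 promoters of the same length, in the order named, and in 4, 5, 4 and 10 of the 24 Hox promoters of the table, which cover 22 genes. The GC content was 55.7% for Hoxa7, 42.3% for Hoxb8, 62.7% for Hoxd10 and 51.0% for Hoxa11, beside a median of 57.7% over Hox promoters and 52.7% over all. A match is a stretch of letters and does not show that a factor binds there.

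Hox proteins bind DNA together with cofactors of the Pbx, Meis and Prep families. All 12 listed cofactors were tested and 0 passed at an unadjusted p under 0.05, with a median log2 fold change of -0.10. They summed to 443, 380 and 383 CPM in AZ876 libraries, against 461, 392 and 398 CPM in injury libraries, and overlapped. Meis1 had a log2 fold change of 0.16 ± 0.22, Meis2 of -0.17 ± 0.15, Pbx3 of -0.23 ± 0.17 and Tshz2, of the teashirt family, of -0.45 ± 0.30.

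Of 24 listed genes that switch Hox clusters on or hold them silent, 20 were tested, with 4 higher and 0 lower at an unadjusted p under 0.05 (7.98% and 6.74% over all genes) and a median log2 fold change of 0.14. Cyp26b1, which degrades retinoic acid, had 55.3, 69.4 and 67.4 CPM in AZ876 libraries, against 40.2, 19.2 and 16.7 CPM in injury libraries (1.33 ± 0.32, unadjusted p = 0.00359, adjusted p = 0.330). Aldh1a2, which makes retinoic acid, had 42.2, 60.3 and 56.5 CPM in AZ876 libraries, against 36.9, 12.3 and 21.8 CPM in injury libraries (1.16 ± 0.36, unadjusted p = 0.0133, adjusted p = 0.330). The groups did not overlap for either gene. Aldh1a2 also stands in the list of fibroblast and meningeal markers, whose sums did not overlap either, and the part of that tissue in these values was not tested. The other 2 were Eed, a Polycomb subunit (0.33 ± 0.14), and Ctcf, which marks domain borders in Hox clusters (0.27 ± 0.10). Among the 20 tested genes, 6 were higher and 0 lower without overlap, beside 10.2% and 8.64% of all genes. The Polycomb genes Ezh2 and Suz12 had 0.12 ± 0.18 and -0.04 ± 0.12. Bmi1, Rnf2 and Pcgf2 had 0.32 ± 0.15, 0.26 ± 0.14 and 0.10 ± 0.12. Cbx2, Ezh1 and Ring1 had -0.02 ± 0.24, -0.04 ± 0.10 and -0.05 ± 0.10. The embryonic activators Cdx1, Cdx2 and Cdx4 were at 0 in all libraries.

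Among the 8 tested noncoding genes of the clusters, 0 passed at an unadjusted p under 0.05, and the median log2 fold change was -0.24. Haglr, in the Hoxd cluster, had -0.29 ± 0.20 and Hoxaas3, antisense in the Hoxa cluster, had -0.89 ± 0.48. The genes listed as neighbours of the clusters, not all of them directly adjacent, had a median of -0.01 over 15 tested. Of these, 2 were higher and 1 lower at an unadjusted p under 0.05, beside 7.98% and 6.74% of all genes. Motor neuron markers, whose subtypes are set by Hox genes, had 2 of 17 higher (Foxp1 and Zeb2) and 6 lower at that threshold. Of the 17, 15 had negative log2 fold changes, with a median of -0.53. Their sums were 424, 459 and 331 CPM in AZ876 libraries against 464, 472 and 453 CPM in injury libraries. Zeb2 alone held 109, 133 and 128 CPM of these sums in AZ876 libraries, against 81.4, 78.3 and 106 CPM in injury libraries. Mnx1, a motor neuron factor, had 1.51, 2.11 and 1.11 CPM in AZ876 libraries and 2.79, 2.05 and 3.38 CPM in injury libraries (-0.80 ± 0.34, adjusted p = 0.339), and Isl1, another, had a log2 fold change of -0.12 ± 0.39. The lowest motor neuron sum was that of AZ876 replicate 3, the library with the least group 10 RNA. That library also had the lowest sum of neuron markers, 2422 CPM, and the highest of microglial and macrophage markers, 11610 CPM.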

How the data were processed

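RNA-seq of 6 spinal cord samples was used, 3 per group, grouped by their titles. Magnetic-bead total RNA was sequenced as paired-end reads, per the labels' protocols. The tools named, with no role given, are HISAT2 2.1.0 and fastp 0.23.0, per the submitters' processing notes. How reads were counted, with which strand setting, build and annotation, is not given in the sources used here. The values are raw read counts per gene, as deposited by the authors. Each library column was matched by its name. The table has 57010 rows; 148 repeated symbols had identical counts and were kept once. Positions are the table's; 0 of 39 Hox starts equalled RefSeq GRCm38. Chi-square tests of library pairs gave at least 13.1 per degree of freedom, so no library was a copy.

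From the deposited counts, genes were filtered with filterByExpr, scaled by TMM and tested with edgeR 4.0.16 (robust quasi-likelihood, R 4.3.3, no covariates, 4 residual degrees of freedom), Benjamini-Hochberg adjusted over all genes tested. CPM uses TMM-scaled sizes. An SE is the log2 fold change over the square root of F. DESeq2 1.42.0, limma 3.58.1, other scalings, no filter, a replicate block and leaving out each library were alternatives. Scripts were tested on simulated data. Floors are 3 counts. Hox genes with an unadjusted p under 0.05, the highest mean CPM of their paralogue group or no overlap at 1 CPM or more are named, with the 2 members of smallest p of other lists where a result uses them. A few genes taken by this rule are not reported here. Members and lists were chosen with earlier results of these data known.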

Additional observations from a re-analysis of the deposited data

How the results depend on the processing

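No Hox gene was called at an adjusted p under 0.05 in the main analysis or in any of 12 alternatives. The count over all genes, 0 in edgeR, was 177 in DESeq2, 6 with no filter on low counts, 2 with the replicate block, and 0 to 363 when 1 library was left out, 363 without AZ876 replicate 1. The number of Hox genes at an unadjusted p under 0.05, 2, was 6 with the replicate block and 0 to 5 when 1 library was left out (5 without AZ876 replicate 1, 0 without AZ876 replicate 2). Same-numbered libraries correlated at 0.39, -0.137 and 0.322, and differently numbered ones at -0.489 to 0.345. Deviations from a mean of 3 libraries constrain each other, so these values cannot decide whether the numbers pair the libraries. Left-out libraries turned the sign of Hoxa2 (-0.10 to 0.18), Hoxc4 (-0.063 to 0.10), Hoxb6 (-0.70 to 0.066) and Hoxc10 (-0.39 to 0.19), and of Hoxb2 (-0.81 to 0.09), Hoxd4 (-0.34 to 0.12), Hoxc5 (-0.19 to 0.27), Hoxa6 (-0.73 to 0.08), Hoxc6 (-0.04 to 0.54), Hoxc9 (-0.13 to 0.004) and Hoxa10 (-0.19 to 0.38); Hoxc4 was also -0.00027 in DESeq2 and -0.0010 with no filter. The caudal to rostral difference, 0.27, became 0.89, beside a pooled SD of 1.05, when every tested gene had equal weight. That version covers only the 13 tested rostral and 5 tested caudal genes. The difference was 0.51 without the most abundant gene of each band and 0.21 as groups 9 to 13 over 4 to 8. It was 0.04 to 0.67 when 1 library was left out. In alternatives added after seeing the data, the difference in log2 summed CPM was 1.95 for groups 11 to 13 (1.11 to 3.22). For Hoxb6 to Hoxb9 it was -0.70 (-1.06 to -0.38). Hox genes without overlap numbered 1 to 10, with 10 without AZ876 replicate 1. With a library left out, groups separate more easily for any gene, and the share over all genes was not computed there. That count is therefore not a result about Hox genes. The cause of these changes was not tested. Depth limits groups 12 and 13, where 3 counts are 0.147 to 0.211 CPM.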

Other observations

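The list of genes for dorsal-ventral or limb position outside the Hox clusters had 7 members, of which 4 were tested. At an adjusted p under 0.05 in edgeR 0 were called, beside 0% of all genes. Lmx1b, a factor of dorsal horn neurons, singled out after its values were seen, had 15.3, 2.04 and 4.25 CPM in AZ876 libraries, against 26.4, 11.6 and 6.31 CPM in injury libraries (log2 fold change -1.05 ± 0.75, edgeR adjusted p = 0.490). Replicate 1 was the highest of each group, as for Hoxb8. Tbx15 had 1.98, 1.12 and 0.932 CPM in AZ876 libraries, against 0.489, 0.630 and 0.780 CPM in injury libraries, without overlap (1.09 ± 0.42, unadjusted p = 0.0321, adjusted p = 0.330). En1, a factor of ventral interneurons, had 0.752, 1.48 and 0.641 CPM in AZ876 libraries and 1.03, 2.42 and 2.15 CPM in injury libraries (-0.96 ± 0.47, adjusted p = 0.359). Shox2 had a log2 fold change of -0.19 ± 0.43 (adjusted p = 0.840). The hindlimb and forelimb genes Tbx4, Tbx5 and Pitx1 had too few reads for the test, so these values do not show whether libraries differ in limb level.

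Among the genes listed as neighbours of the clusters was Nfe2l2, a regulator of the oxidative stress response on the chromosome of the Hoxd cluster. It had 115, 154 and 176 CPM in AZ876 libraries, against 85.5, 64.7 and 126 CPM in injury libraries (0.69 ± 0.26, unadjusted p = 0.0296, adjusted p = 0.330). Atp5g1, a subunit of mitochondrial ATP synthase that lies near the Hoxb cluster, had 113, 87.3 and 88.5 CPM in AZ876 libraries, against 140, 133 and 113 CPM in injury libraries (-0.42 ± 0.14, unadjusted p = 0.0202, adjusted p = 0.330).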
